A study of Mus musculus with 12 samples.

Results

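The glycolysis enzymes described here were 10 genes (Hk1, Hk2, Pfkp, Aldoa, Gapdh, Pgk1, Eno1, Pkm, Ldha and Ldhb) of 27179 in a table of RNA abundance, chosen by name through their NCBI Gene numbers. All 10 passed the expression filter and were among the 14972 genes tested, Hk2 only through the group where it was highest. The question was whether their RNA moved up while that of oxidation enzymes moved down, as in a switch from oxidation to glycolysis. Whole kidneys of 12 mice were sequenced, 3 in each of 4 groups: wild-type mice and mice labelled {Gamma}GT1-Cre;Fan1-/- (FAN1KO), each given saline or cisplatin, a drug that crosslinks DNA. Cisplatin was injected into the peritoneum at 2 mg/kg every week for 5 weeks. All mice were 8 to 12 weeks old and of a background labelled mixed, and the labels give no sex. FAN1 is a nuclease that repairs DNA crosslinks. The Ggt1 promoter drives Cre in the proximal tubule, so other kidney cells of FAN1KO mice keep Fan1, and whether wild-type mice carried Cre is not given in the sources used here.

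Glycolysis splits glucose into pyruvate in the cytosol, and lactate dehydrogenase interconverts pyruvate and lactate. Most steps have several isoenzymes, encoded by separate genes and used by different cells. The proximal tubule burns mainly fatty acids, carries little hexokinase and makes glucose, whereas distal segments and collecting ducts use more glucose.

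Values were TPM (transcripts per 1000000), a length-corrected share of each library's RNA. Differences were tested by limma on log2(TPM + 1), with p-values adjusted over all 14972 genes and called at an adjusted p under 0.05. The reads assigned to genes, as recovered from the steps in the TPM, ranged from 37201911 to 82946961 per library. Fan1 was at 1.17 to 3.80 TPM and its FAN1KO range overlapped its wild-type range under both treatments, so the RNA of a gene deleted in 1 cell type of the whole kidney did not check the labels. RNA of Y-linked genes (Uty, Kdm5d, Eif2s3y and Ddx3y) was present in 4 libraries, 1 per group (FAN1KO cisplatin 3, FAN1KO saline 1, wild-type cisplatin 1 and wild-type saline 3). The median of all tested genes was 0.24 higher on the log2 scale in cisplatin-treated FAN1KO than wild-type kidneys and 0.37 higher in cisplatin than saline FAN1KO kidneys, and changes were read against these shifts. Sums of some kidney cell markers also differed. The summed TPM of 11 proximal tubule markers was 3242 to 6811 in FAN1KO cisplatin kidneys and 10740 to 15090 in the other 9 libraries. Collecting duct markers (7 genes) summed to 1173 to 1774 TPM against 389 to 882, tubule injury markers (5 genes) to 785 to 1165 TPM against 7.50 to 149, and red blood cell markers (5 genes in the table) to 15.7 to 88.2 TPM against 546 to 6589. Leukocyte markers (9 genes) summed to 176 to 427 TPM in FAN1KO cisplatin kidneys and 44.6 to 212 TPM in the others. Loop and distal tubule markers (6 genes, 1877 to 2722 TPM) and fibroblast and vessel markers (7 genes, 81.5 to 163 TPM) overlapped the other libraries. Abundant genes lead such sums. Against wild-type kidneys under cisplatin, limma called 7 of 11 proximal and 2 of 6 loop and distal tubule markers lower. It called 3 of 7 collecting duct and 1 of 9 leukocyte markers higher. Of all tested genes, 19.6% were called higher and 4.37% lower. In whole kidneys, fewer cells of a type and less RNA per cell cannot be told apart, and the part of cell makeup in the results below was not tested.

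**Figure D1:**
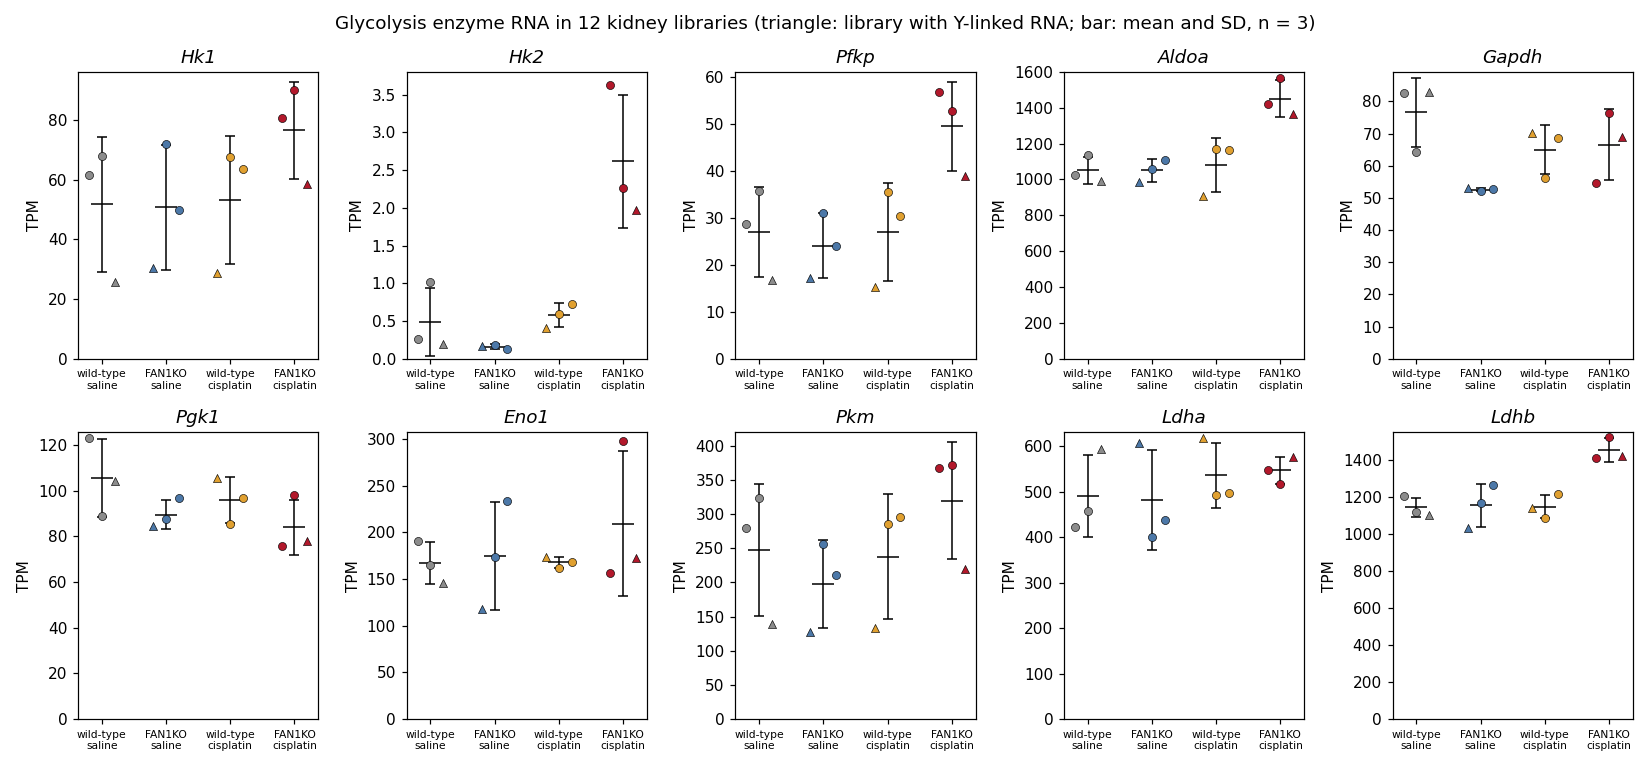
TPM of each of the 10 glycolysis enzymes (vertical axes from 0, 1 panel per gene) in the 12 libraries by group. Circles and triangles are libraries, triangles those with Y-linked RNA, and bars give the mean and SD of 3. Hk2, Pfkp, Aldoa and Ldhb had all 3 FAN1KO cisplatin libraries above the other 9, and in Hk1, Pfkp, Aldoa and Pkm the triangle was the lowest point of every group.

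Hexokinases trap glucose in the cell as glucose 6-phosphate. Hk2 (NCBI Gene 15277, chr6:82725025-82774454, minus strand, GRCm38.p6) encodes the inducible hexokinase 2 and was the least abundant member. Saline-treated wild-type kidneys had 0.267, 1.01 and 0.192 TPM, and saline-treated FAN1KO kidneys had 0.174, 0.182 and 0.131 TPM. After cisplatin, wild-type kidneys had 0.408, 0.600 and 0.729 TPM, and FAN1KO kidneys had 3.62, 2.26 and 1.97 TPM. All 3 FAN1KO cisplatin libraries were above the other 9. The values rested on 18 to 132 reads in those 9 libraries and on 241 to 418 reads in FAN1KO cisplatin libraries. Hk2 rose by 1.18 ± 0.23 (log2, SE) in cisplatin-treated FAN1KO against wild-type kidneys (limma adjusted p 0.00656) and by 1.61 ± 0.23 in cisplatin against saline FAN1KO kidneys (limma adjusted p 0.000736). The pseudocount of 1 shrinks a change at this level, and with a pseudocount of 0.1 these differences were 1.98 and 3.33. Outside FAN1KO cisplatin kidneys only wild-type saline 2 reached 1 TPM, so Hk2 was tested through the group where it was high. Without the filter of 1 TPM in 3 or more libraries the limma adjusted p were 0.00598 and 0.000764. Under cisplatin the libraries without Y-linked RNA had a mean of 2.94 TPM in FAN1KO and 0.665 TPM in wild-type kidneys, a ratio of 4.43, and those with Y-linked RNA had a ratio of 4.84.

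By the same test, Hk2 was the only member whose response to cisplatin differed between the genotypes by the interaction term of the 12-library fit (1.49 ± 0.33 log2, limma adjusted p 0.0305). That is 1 of 10 members, where 5.22% of all tested genes had a higher and 1.02% a lower interaction. The call was lost with the replicate number as a block (limma adjusted p 0.0583). It was kept without wild-type saline 3, wild-type cisplatin 3 or FAN1KO cisplatin 3 and lost without any other single library (limma adjusted p 0.0530 to 0.0748). With a Y-linked covariate 4 members had a higher interaction that was called (Hk2, Pfkp, Pkm and Aldoa), against 27.3% of all genes in that fit. Both other Hk2 calls were kept in each alternative run, with a limma adjusted p of at most 0.0299 and 0.00388 when a library was left out.

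Hk1 (NCBI Gene 15275, chr10:62268855-62379920, minus strand) encodes hexokinase 1, the housekeeping form of most tissues. It measured 61.4, 68.0 and 25.8 in wild-type saline, 30.4, 71.9 and 49.7 in FAN1KO saline, 28.6, 67.5 and 63.7 in wild-type cisplatin, and 80.8, 90.1 and 58.4 in FAN1KO cisplatin kidneys. The library with Y-linked RNA was the lowest of each group, and the groups overlapped. The difference between genotypes under cisplatin was 0.58 ± 0.44 log2 (limma adjusted p 0.353). With a Y-linked covariate it was 0.61 and passed the test (limma adjusted p 0.0164), in a fit that called 40.3% of all tested genes higher. With the covariate and median-ratio scaling together it was 0.32 and did not pass (limma adjusted p 0.165). Hk1 was far above Hk2 in every library: the log2 ratio of Hk2 to Hk1 was −4.89 ± 0.42 (SD, n = 3) in FAN1KO cisplatin and −6.47 ± 0.34 in wild-type cisplatin kidneys, and FAN1KO cisplatin libraries did not overlap any other group. The exact permutation p was 0.1, the smallest that 3 against 3 libraries allow. With 1 added to both TPM values before the ratio, the difference from wild-type cisplatin kidneys went from 1.57 to 0.59 and that from FAN1KO saline kidneys from 3.32 to 0.97, and in both the groups then overlapped. Hkdc1, a hexokinase-related enzyme outside the 10 members, rose from 1.94 ± 0.44 TPM (SD, n = 3) in wild-type cisplatin to 6.63 ± 1.88 TPM in FAN1KO cisplatin kidneys (1.36 ± 0.24 log2, SE, limma adjusted p 0.00376).

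Regions upstream of member genes were searched on both strands for ACGTG, 1 form of the core of the hypoxia response element bound by hypoxia-inducible factors. Other forms of the core, such as GCGTG, were not searched, so members without a match are not shown to lack the element. ACGTG also occurs within the E-box CACGTG, which reads the same on both strands. RefSeq (GRCm38.p6) lists 17 starts for the 10 members. The 250 bases before the start held ACGTG at 6 of them, in 5 members (Hk2, Aldoa, Pgk1, Pkm and Ldha). Overlapping regions of different Aldoa starts hold the same match, which is thus counted more than once. Of 32851 starts of all genes, 16.6% held ACGTG and 6.02% held the E-box. Shown are Hk2 and Aldoa, which rose, and Ldha and Pgk1, which did not pass the test, 5′ to 3′ on the gene's strand with each match in capitals. The regions are chr6:82774455-82774704 (Hk2, minus strand), chr7:126799255-126799504 (Aldoa, minus strand, 1 of 3 listed starts), chr7:46845554-46845803 (Ldha, plus strand, 1 of 2 listed starts) and chrX:106186850-106187099 (Pgk1, plus strand).
Hk2: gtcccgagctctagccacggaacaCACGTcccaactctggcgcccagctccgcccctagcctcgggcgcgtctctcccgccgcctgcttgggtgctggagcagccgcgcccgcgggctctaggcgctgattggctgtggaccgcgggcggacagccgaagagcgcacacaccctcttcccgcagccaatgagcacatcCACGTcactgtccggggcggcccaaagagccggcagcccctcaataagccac
Aldoa: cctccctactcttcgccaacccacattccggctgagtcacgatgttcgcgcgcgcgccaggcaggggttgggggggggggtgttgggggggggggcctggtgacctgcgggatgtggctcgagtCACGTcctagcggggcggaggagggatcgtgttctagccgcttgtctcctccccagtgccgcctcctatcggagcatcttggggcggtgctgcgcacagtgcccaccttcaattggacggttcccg
Ldha: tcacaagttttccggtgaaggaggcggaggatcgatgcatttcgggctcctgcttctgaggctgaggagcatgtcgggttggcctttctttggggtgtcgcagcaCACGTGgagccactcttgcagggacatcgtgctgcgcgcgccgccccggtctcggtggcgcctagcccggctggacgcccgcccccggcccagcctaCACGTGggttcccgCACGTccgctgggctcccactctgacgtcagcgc
Pgk1: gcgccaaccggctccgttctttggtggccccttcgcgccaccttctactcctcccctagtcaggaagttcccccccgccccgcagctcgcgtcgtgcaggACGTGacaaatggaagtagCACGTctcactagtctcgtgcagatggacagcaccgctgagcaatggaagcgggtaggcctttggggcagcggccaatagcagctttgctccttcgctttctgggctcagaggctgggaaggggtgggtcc
Hk2 and Pgk1 had 2 matches each, Aldoa had 1, and Ldha had 5 counted over both strands, including those of 2 E-boxes, each of which matches on both. A match is a sequence description only.

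Phosphofructokinase commits sugar to glycolysis. Pfkp (NCBI Gene 56421, chr13:6579874-6649060, minus strand, overlapping Pitrm1) encodes the platelet-type subunit. It measured 28.7, 35.9 and 16.9 in wild-type saline, 17.3, 31.1 and 24.0 in FAN1KO saline, 15.3, 35.5 and 30.4 in wild-type cisplatin, and 57.0, 52.8 and 38.9 in FAN1KO cisplatin kidneys. FAN1KO cisplatin libraries were above all others. Pfkp rose in cisplatin against saline FAN1KO kidneys (1.03 ± 0.35 log2, SE, limma adjusted p 0.0375), a call lost without FAN1KO saline 1, FAN1KO saline 3, FAN1KO cisplatin 1 or FAN1KO cisplatin 2 and with median-ratio scaling (0.60, limma adjusted p 0.0847). Against wild-type kidneys under cisplatin the difference was 0.91 ± 0.35 log2 and did not pass (limma adjusted p 0.0802), and with a Y-linked covariate it was 0.94 and passed (limma adjusted p 0.000821).

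The other subunit genes gave Pfkp a contrast within each library. Pfkl, the liver-type subunit, was at 53.7 ± 17.5 TPM (SD, n = 3) in wild-type cisplatin and 52.6 ± 4.75 TPM in FAN1KO cisplatin kidneys (0.03 ± 0.28 log2, SE, limma adjusted p 0.956). Pfkm, the muscle-type subunit, was at 38.2 ± 5.82 and 36.1 ± 4.27 TPM (−0.08 ± 0.19 log2, limma adjusted p 0.802). Pfkp made up 40.1%, 34.9% and 32.0% of the summed TPM of the subunit genes in FAN1KO cisplatin kidneys and 18.9% to 25.6% in the other 9 libraries. The summed TPM itself overlapped between the groups, at 138 ± 15.1 in FAN1KO cisplatin and 119 ± 33.0 in wild-type cisplatin kidneys. The log2 ratio of Pfkp to Pfkm was 1.02 higher and that of Pfkp to Pfkl 0.92 higher in cisplatin-treated FAN1KO than wild-type kidneys, without overlap (exact permutation p 0.1 each).

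Aldolase splits fructose 1,6-bisphosphate. Aldoa (NCBI Gene 11674, chr7:126795234-126800994, minus strand) encodes the muscle and general form. Aldoa TPM was 1025, 1136 and 991 in wild-type saline, 984, 1061 and 1109 in FAN1KO saline, 909, 1171 and 1165 in wild-type cisplatin, and 1422, 1567 and 1366 in FAN1KO cisplatin kidneys. FAN1KO cisplatin libraries were above the other 9. Aldoa rose by 0.43 ± 0.13 log2 (SE) against wild-type kidneys under cisplatin (limma adjusted p 0.0344) and by 0.46 ± 0.13 against saline FAN1KO kidneys (limma adjusted p 0.0158), but relative to the other genes the differences were small: with median-ratio scaling they were 0.14 (limma adjusted p 0.512) and 0.03 (limma adjusted p 0.906). The first call was also lost without wild-type cisplatin 1, FAN1KO cisplatin 1 or FAN1KO cisplatin 2, and the second without FAN1KO saline 1 or FAN1KO cisplatin 2.

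**Figure D2:**
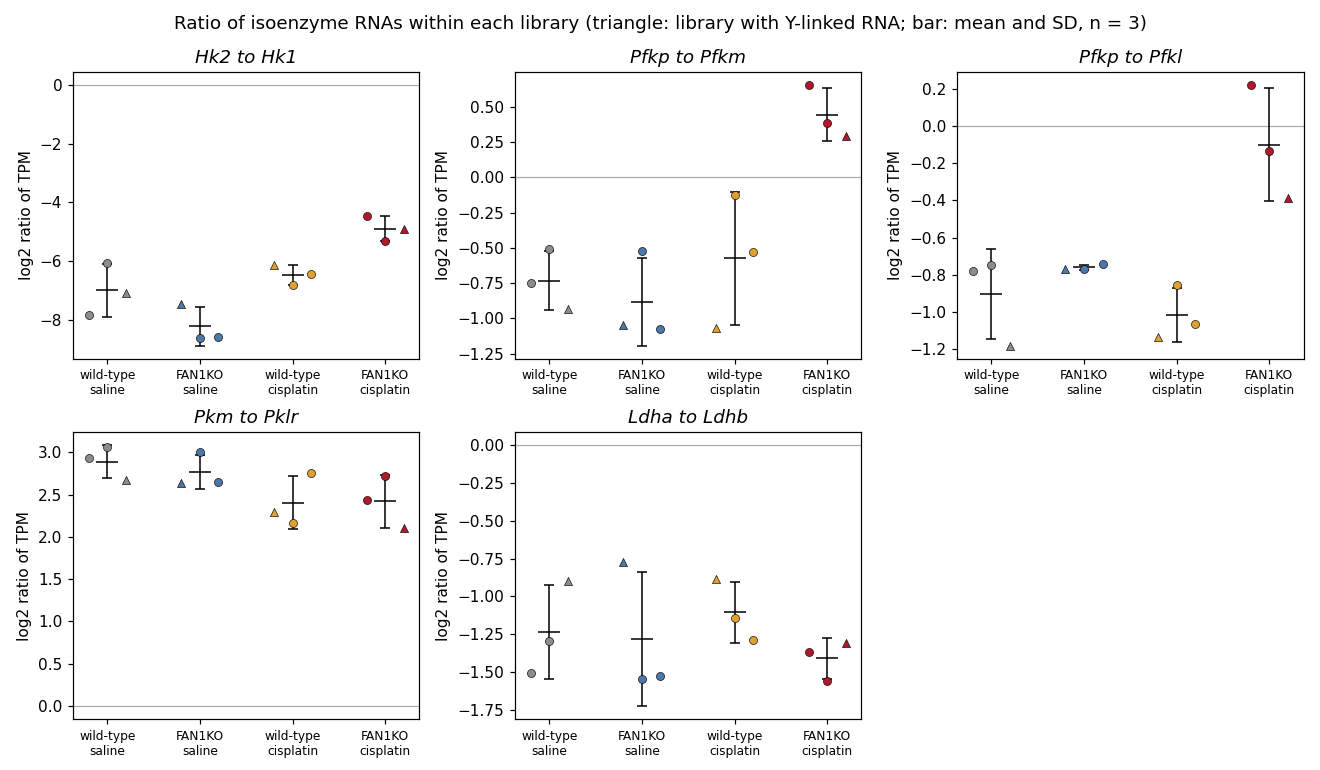
Log2 ratio of the TPM of paired isoenzyme genes within each library (vertical axes), by group, 1 panel per pair. Circles and triangles are libraries, triangles those with Y-linked RNA, and bars give the mean and SD of 3. The ratios of Hk2 to Hk1, Pfkp to Pfkm and Pfkp to Pfkl had all 3 FAN1KO cisplatin libraries above the other 9, and those of Pkm to Pklr and Ldha to Ldhb did not.

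The middle of the pathway did not follow the same pattern. Gapdh (NCBI Gene 14433, chr6:125161852-125166467, minus strand) encodes the enzyme that reduces NAD during glycolysis. It was at 82.7, 64.3 and 83.0 TPM in wild-type saline, 52.9, 52.1 and 52.6 in FAN1KO saline, 70.1, 56.3 and 68.5 in wild-type cisplatin, and 54.5, 76.3 and 68.8 in FAN1KO cisplatin kidneys. The FAN1KO saline libraries were below all others. Under cisplatin the genotypes overlapped (0.03 ± 0.15 log2, SE, limma adjusted p 0.909), and under saline the difference was −0.53 ± 0.15 without overlap (limma unadjusted p 0.00424, adjusted p 0.208). Against saline FAN1KO kidneys, Gapdh in cisplatin FAN1KO kidneys was 0.32 higher (limma adjusted p 0.101), which became a call without FAN1KO cisplatin 1 (0.46, limma adjusted p 0.0420). Gapdh has named pseudogenes, as do Aldoa, Pgk1, Ldha and Ldhb, and how reads shared with them were counted is not given in the sources used here, so these levels are uncertain.

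Pgk1 (NCBI Gene 18655, chrX:106187100-106203699, plus strand) encodes phosphoglycerate kinase, which makes ATP. It measured 123, 89.0 and 104 in wild-type saline, 84.5, 87.5 and 96.8 in FAN1KO saline, 106, 85.4 and 96.7 in wild-type cisplatin, and 76.0, 98.0 and 78.2 in FAN1KO cisplatin kidneys. All groups overlapped. The difference between genotypes under cisplatin was −0.19 ± 0.14 log2 (SE, limma adjusted p 0.347), while the median gene was 0.24 higher, and with median-ratio scaling together with a Y-linked covariate Pgk1 was called lower (−0.49, limma adjusted p 0.0367), as it was against saline FAN1KO kidneys (−0.54, limma adjusted p 0.0177).

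Enolase makes phosphoenolpyruvate. Eno1 (NCBI Gene 13806, chr4:150236708-150248879, plus strand) was at 191, 165 and 145 TPM in wild-type saline, 118, 174 and 234 in FAN1KO saline, 174, 162 and 169 in wild-type cisplatin, and 157, 299 and 172 in FAN1KO cisplatin kidneys. The groups overlapped (0.26 ± 0.27 log2, SE, limma adjusted p 0.515). Its near copy Eno1b was above it in every library, at 387 to 1071 TPM, so how reads were split between them is uncertain. The sum of both was 1102 ± 62.7 TPM (SD, n = 3) in FAN1KO cisplatin and 1071 ± 182 TPM in wild-type cisplatin kidneys, which overlapped. Eno2, the neuronal enolase, rose from 2.75 ± 1.19 TPM in wild-type cisplatin to 9.12 ± 2.95 TPM in FAN1KO cisplatin kidneys (SD, n = 3; 1.45 ± 0.28 log2, SE, limma adjusted p 0.00536).

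Pyruvate kinase makes pyruvate and ATP. Pkm (NCBI Gene 18746, chr9:59656576-59679372, plus strand) encodes the M1 and M2 forms, which a table of genes does not separate. It measured 279, 324 and 139 in wild-type saline, 128, 256 and 210 in FAN1KO saline, 133, 285 and 296 in wild-type cisplatin, and 368, 371 and 220 in FAN1KO cisplatin kidneys. The groups overlapped, and the library with Y-linked RNA was the lowest of each. The difference under cisplatin was 0.47 ± 0.41 log2 (SE, limma adjusted p 0.423), and with a Y-linked covariate it was 0.50 and passed (limma adjusted p 0.00591). That fit called 40.3% of all tested genes higher. With the covariate and median-ratio scaling together the difference was 0.20 and did not pass (limma adjusted p 0.185). Pklr, the liver and red cell form that the proximal tubule also carries, was at 44.8 ± 18.2 TPM (SD, n = 3) in wild-type cisplatin and 58.5 ± 8.66 TPM in FAN1KO cisplatin kidneys (0.45 ± 0.31 log2, limma adjusted p 0.318). The log2 ratio of Pkm to Pklr was 2.42 ± 0.31 (SD, n = 3) and 2.40 ± 0.31 in the FAN1KO and wild-type cisplatin groups (exact permutation p 1.0).

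Lactate dehydrogenase subunits differed from each other. Ldhb (NCBI Gene 16832, chr6:142490249-142507957, minus strand), the heart-type subunit, was at 1205, 1123 and 1106 TPM in wild-type saline, 1035, 1168 and 1266 in FAN1KO saline, 1144, 1089 and 1216 in wild-type cisplatin, and 1413, 1528 and 1426 in FAN1KO cisplatin kidneys. The FAN1KO cisplatin libraries were above all others. Ldhb rose by 0.34 ± 0.11 log2 (SE) against wild-type kidneys under cisplatin (limma adjusted p 0.0452), a call lost without any of the 6 libraries and, with median-ratio scaling, at 0.05. Against saline FAN1KO kidneys it was called 0.34 ± 0.11 higher (limma adjusted p 0.0323), but with median-ratio scaling the direction turned to −0.10 (limma adjusted p 0.655). This second call was lost without FAN1KO saline 1, FAN1KO saline 2, FAN1KO cisplatin 1 or FAN1KO cisplatin 2.

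Ldha (NCBI Gene 16828, chr7:46842274-46855627, plus strand), the muscle-type subunit that is linked with lactate production, was at 423, 457 and 594 TPM in wild-type saline, 607, 400 and 439 in FAN1KO saline, 619, 492 and 498 in wild-type cisplatin, and 548, 518 and 576 in FAN1KO cisplatin kidneys. Here the library with Y-linked RNA was the highest of each group. The genotypes overlapped under cisplatin (0.04 ± 0.18 log2, SE, limma adjusted p 0.899). The log2 ratio of Ldha to Ldhb was −1.41 ± 0.13 (SD, n = 3) in FAN1KO cisplatin and −1.11 ± 0.21 in wild-type cisplatin kidneys, lower by 0.30 without overlap (exact permutation p 0.1). It overlapped with both saline groups. Over 24 tests of isoenzyme ratios in 4 comparisons, 4 of which are not reported here, the lowest Benjamini–Hochberg adjusted exact permutation p was 0.267, and 3 against 3 libraries could not pass 0.05.

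Read as a group, 3 of the 10 members (Hk2, Aldoa and Ldhb) were called higher in cisplatin-treated FAN1KO than wild-type kidneys and 7 did not pass, while 19.6% of all tested genes were called higher and 4.37% lower by the same limma test. The median difference of the members was 0.39 log2, against 0.24 for all genes. With median-ratio scaling 1 member (Hk2) was called higher, against 9.28% of all genes. With a Y-linked covariate 6 members were called higher (Hk1, Hk2, Pfkp, Aldoa, Pkm and Ldhb), against 40.3% of all genes. The 3 FAN1KO libraries were above the 3 wild-type libraries for 4 members, where 35.7% of all tested genes were entirely higher and 8.60% entirely lower. In cisplatin against saline FAN1KO kidneys 4 members (Hk2, Pfkp, Aldoa and Ldhb) were called higher, against 34.9% of all genes higher and 4.90% lower, and the members' median of 0.40 log2 lay beside 0.37 for all genes. With median-ratio scaling it was 1 member (Hk2), against 15.6%.

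**Figure D3:**
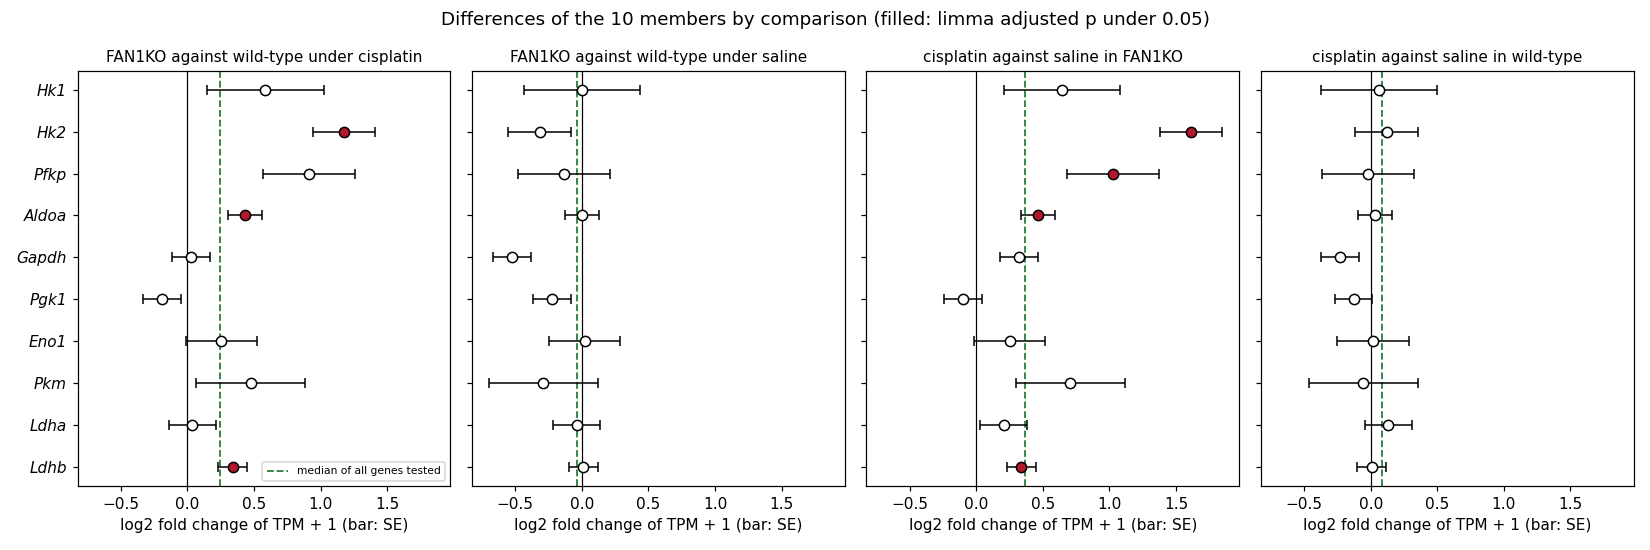
Log2 fold change of TPM + 1 with its SE (horizontal axes) for the 10 members in each of the 4 comparisons of 3 against 3 libraries. Filled points had a limma adjusted p under 0.05, and the dashed line is the median of all 14972 genes tested. Hk2 was the farthest above that line in both comparisons that involve FAN1KO cisplatin kidneys, and no point was filled in the other comparisons.

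Without cisplatin, or without the deletion, no call was made among the members. In FAN1KO against wild-type kidneys under saline 0 of 10 passed limma (lowest adjusted p 0.208, 1 at an unadjusted p under 0.05, 0 by voom on recovered reads), against 0.341% of all genes higher and 0.427% lower. In cisplatin against saline wild-type kidneys 0 of 10 passed limma (0 at an unadjusted p under 0.05, 0 by voom), against 0.0601% of all genes higher and 0.0% lower. These comparisons share libraries with those above.

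Levels kept nearly the same order in all groups. Ldhb (1145 to 1455 TPM, group means) and Aldoa (1051 to 1452) led and overlapped within every group, followed by Ldha (482 to 547), then Pkm (198 to 320) and Eno1 (167 to 209), which overlapped each other, and Pgk1 (84.0 to 105). Gapdh (52.6 to 76.7) and Hk1 (50.7 to 76.4) overlapped in every group and changed places only in FAN1KO cisplatin kidneys, where Hk1 overlapped Pgk1. Pfkp (24.1 to 49.6) and Hk2 (0.162 to 2.62) had the lowest means, but Pfkp overlapped the gene above it in every group (Gapdh in FAN1KO cisplatin kidneys and Hk1 in the others). The 10 members together made up 0.336% ± 0.014 (SD, n = 3) of all TPM in wild-type saline, 0.328% ± 0.021 in FAN1KO saline, 0.342% ± 0.020 in wild-type cisplatin and 0.426% ± 0.031 in FAN1KO cisplatin kidneys. Abundant members lead this share. Between the cisplatin groups the mean of Aldoa went from 1082 to 1452 and that of Ldhb from 1150 to 1455. Both lost their calls in this comparison with median-ratio scaling. The share was not scaled and includes the shift of all genes, so it does not show a gain across the pathway.

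Several members, like many other genes, spread within groups by Y-linked RNA. The split was noticed in the data, and 4 libraries with such RNA were then compared with the 8 without it, beside the 4 group means in limma. Pkm was 0.96 lower on the log2 scale in libraries with Y-linked RNA (SE 0.08, limma adjusted p 6.68e-05), Hk1 was 0.99 lower (SE 0.13, limma adjusted p 0.000268) and Pfkp was 0.76 lower (SE 0.11, limma adjusted p 0.000438), and in all 4 groups that library was the lowest. Ldha was 0.35 higher (SE 0.07, limma adjusted p 0.00279) and was the highest of all 4 groups. Aldoa was 0.19 lower (limma adjusted p 0.0391), but with median-ratio scaling its direction turned to 0.12 higher (limma adjusted p 0.270). In all, 4 members were called lower and 1 higher, against 50.0% of all genes lower and 6.31% higher. After median-ratio scaling Pkm (−0.65), Hk1 (−0.69), Pfkp (−0.47) and Ldha (0.66) kept their calls and Gapdh (0.42, limma adjusted p 0.0140) gained one. In that scaled fit 7865 of all 14972 genes had a limma unadjusted p under 0.05, so such differences were not particular to the members.

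Within libraries of the same Y-linked status, the genotypes under cisplatin separated for 6 members: Hk1, Hk2, Pfkp, Aldoa, Pkm and Ldhb were higher in FAN1KO kidneys both among libraries with and among those without Y-linked RNA. That held for 49.5% of all tested genes. For Hk1 the ratio of means was 1.30 without and 2.04 with Y-linked RNA, for Pfkp 1.67 and 2.55, for Pkm 1.27 and 1.66, for Aldoa 1.28 and 1.50, and for Ldhb 1.28 and 1.25. Strata with Y-linked RNA held 1 library per group.

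Beside the members, enzymes of the citric acid cycle and of fatty acid oxidation were read as the oxidation side. Of 28 such genes, 17 were called lower in cisplatin-treated FAN1KO than wild-type kidneys, against 4.37% of all tested genes. The other 11 did not pass, and the median difference of the 28 genes was −0.50 log2. The largest negative differences were in Acadvl (−2.06 ± 0.54, SE, limma adjusted p 0.0205) and Acadm (−1.51 ± 0.13, limma adjusted p 8.84e-05), which start the breakdown of long and medium fatty acids, and in Hadh (−0.77 ± 0.14, limma adjusted p 0.00394). Acadvl and Acadm also differed without cisplatin. Acadvl was at 87.2 ± 79.4 TPM (SD, n = 3) in FAN1KO saline and 323 ± 17.0 TPM in wild-type saline kidneys without overlap (−2.24 ± 0.54 log2, SE, limma adjusted p 0.122), and its difference between cisplatin and saline FAN1KO kidneys was 0.30 (limma adjusted p 0.682). Acadm, at 800.5 ± 81.1 against 1330 ± 36.9 TPM, was the 1 oxidation gene called lower under saline (−0.74 ± 0.13 log2, SE, limma adjusted p 0.0250), and it was lower again in cisplatin than saline FAN1KO kidneys (−0.94, limma adjusted p 0.000506). Hadh did not pass under saline (−0.09, limma adjusted p 1.00). The mean log2(TPM + 1) of the 10 members less that of the 28 oxidation genes was −0.996, −0.92 and −1.20 in wild-type saline, −1.30, −0.93 and −0.93 in FAN1KO saline, −1.25, −0.95 and −0.94 in wild-type cisplatin, and −0.09, 0.03 and −0.28 in FAN1KO cisplatin kidneys. The 3 FAN1KO cisplatin libraries lay apart from the other 9. The members' mean was 7.22 in FAN1KO cisplatin against 6.82 in wild-type cisplatin kidneys, and the oxidation mean was 7.33 against 7.87. These means include the shift of all genes, whose median was 0.24 higher. The members' mean weighs all 10 genes equally. It thus includes Hk2, which had the largest difference of the members (1.18 log2). Hk2 passed the filter only through FAN1KO cisplatin kidneys, and a mean without it was not computed. With median-ratio scaling the median difference was 0.10 log2 for the members, −0.79 for the oxidation genes and −0.01 for all genes. The same FAN1KO cisplatin libraries had the lowest proximal tubule marker sums, and the part of cell makeup was not tested.

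**Figure D4:**
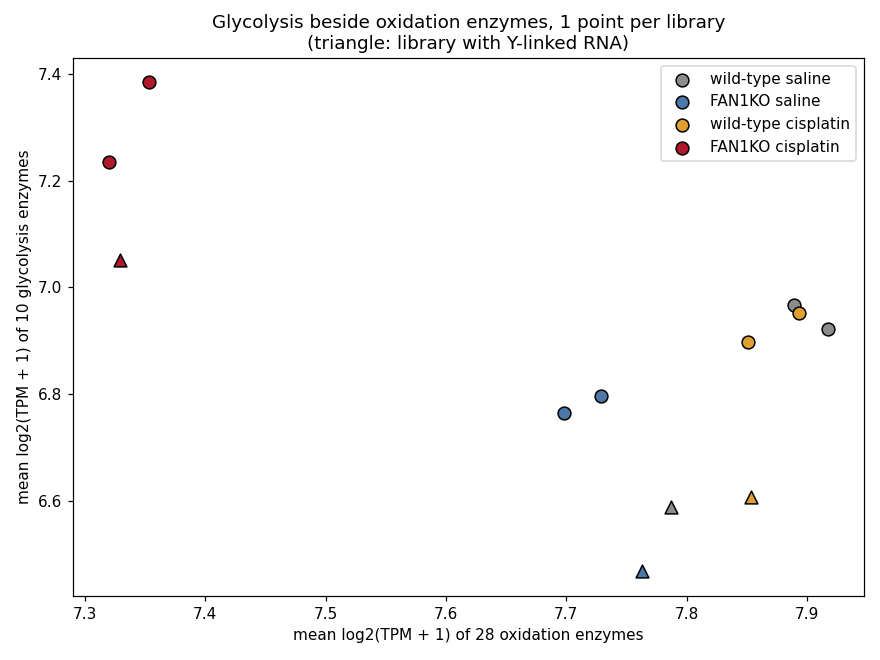
Mean log2(TPM + 1) of the 10 glycolysis enzymes (vertical axis) against that of 28 oxidation enzymes (horizontal axis), 1 point per library. Colours are groups and triangles are libraries with Y-linked RNA. The 3 FAN1KO cisplatin libraries lie at the upper left, with oxidation means of 7.32 to 7.35 where all others are at 7.70 or above.

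Routes that branch from or oppose glycolysis were read from lists. Unscaled counts of called list genes stand beside 19.6% of all tested genes called higher and 4.37% lower in the same comparison. Of the 14 other glycolysis enzymes tested, 3 were called higher in cisplatin-treated FAN1KO than wild-type kidneys (Eno2, Hkdc1 and Gpi1), with a median of 0.005 log2 against 0.24 for all genes. Gpi1, which turns glucose 6-phosphate into fructose 6-phosphate, went from 198 ± 7.27 to 264 ± 20.4 TPM (SD, n = 3; 0.41 ± 0.08 log2, SE, limma adjusted p 0.00651). Gluconeogenesis had 4 of 8 genes lower and 2 higher. Fbp1, which reverses the phosphofructokinase step, was at 1652 ± 64.7 TPM in wild-type cisplatin and 677 ± 49.5 TPM in FAN1KO cisplatin kidneys (−1.29 ± 0.10 log2, SE, limma adjusted p 7.86e-05). G6pc, which releases free glucose, fell by 1.60 on the log2 scale (SE 0.26, limma adjusted p 0.00271), and Pcx, pyruvate carboxylase, fell by 0.94 (SE 0.26, limma adjusted p 0.0267). The calls in the other direction were Pck2, the mitochondrial phosphoenolpyruvate carboxykinase (1.05 ± 0.27, limma adjusted p 0.0182), and G6pc3, a widely expressed glucose 6-phosphatase (0.50 ± 0.08, limma adjusted p 0.00235).

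Pyruvate entry into mitochondria had 7 of 13 genes lower and 6 that did not pass. Pdk2, a kinase that inhibits pyruvate dehydrogenase, fell by 0.68 on the log2 scale (SE 0.17, limma adjusted p 0.0198), Pdp2, a phosphatase that activates it, fell by 0.67 (SE 0.18, limma adjusted p 0.0225), and Mpc1, a subunit of the pyruvate carrier, fell by 0.62 (SE 0.20, limma adjusted p 0.0463). An inhibitor and an activator of the same enzyme were thus both lower. Pdk4, another kinase that inhibits this enzyme, had a higher mean instead. It was at 14.05 ± 7.795 TPM (SD, n = 3) in wild-type cisplatin and 36.34 ± 13.98 TPM in FAN1KO cisplatin kidneys. Its ranges overlapped, and Pdk4 was not called in this comparison. Pentose phosphate and hexosamine enzymes had 5 of 11 genes higher, among them Pgd (0.86 ± 0.27, limma adjusted p 0.0413), G6pdx (0.84 ± 0.14, limma adjusted p 0.00345) and Pgls (0.76 ± 0.22, limma adjusted p 0.0320), the enzymes of the oxidative branch that makes NADPH. Their list's median of 0.40 log2 was 0.13 with median-ratio scaling, where 1 gene was called higher and 1 lower.

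Glucose and lactate transporters had 2 of 12 tested genes lower and 10 that did not pass, the former being Slc16a4, a monocarboxylate carrier family member (−1.89 ± 0.35, limma adjusted p 0.00495), and Slc2a12, a glucose carrier (−0.81 ± 0.24, limma adjusted p 0.0331). With median-ratio scaling 4 transporters were called lower. Of 5 genes that set the level of fructose 2,6-bisphosphate, an activator of phosphofructokinase, Pfkfb1 was called higher (0.79 ± 0.17, limma adjusted p 0.0101). It was at 2.24 ± 0.69 TPM (SD, n = 3) in FAN1KO cisplatin and 0.852 ± 0.024 TPM in wild-type cisplatin kidneys. All libraries outside FAN1KO cisplatin were under 1 TPM, so Pfkfb1 was tested only through the group where it was high. Among 18 hypoxia-inducible factor genes and targets, Ddit4, an inhibitor of mTORC1 (1.60 ± 0.35, limma adjusted p 0.00998), and Egln2, an oxygen-sensing prolyl hydroxylase (0.27 ± 0.08, limma adjusted p 0.0400), were called higher, and Vegfa, a vascular growth factor (−0.73 ± 0.12, limma adjusted p 0.00330), and Egln1, the main oxygen-sensing prolyl hydroxylase (−0.47 ± 0.12, limma adjusted p 0.0213), lower. With median-ratio scaling 1 of the 18 was called higher and 5 lower, with a median of −0.16 log2. Of the 4 near copies of members that were tested, none was called in this comparison.

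The genes whose log2(TPM + 1) was most like a member's over the 12 libraries, by Pearson r, are given as a description, since the libraries share their groups and the Y-linked split. They were Sort1 (0.99) and Ildr1 (0.99) for Hk1, Defb28 (0.98) and Smarcc1 (0.98) for Hk2, Kmt2a (0.99) and Pygb (0.99) for Pfkp, and Thsd4 (0.97) and Mansc1 (0.97) for Pkm. Pygb encodes the brain glycogen phosphorylase. For Aldoa they were Epb41l4aos (0.98) and a gene without a name in the table used (0.98), and for Ldhb 3000002C10Rik (0.96) and Snrpg (0.96). For Ldha they were Zbtb20 (0.96) and Spsb2 (0.94), for Pgk1 Atp5g1 (0.96) and Apoo (0.92), which encode mitochondrial proteins, and for Eno1 Got2 (0.87) and Gad1os (0.83). For Gapdh they were a gene without a name (0.93) and Gm15483 (0.87).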

How the data were processed

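RNA of 12 whole mouse kidneys was sequenced. The file deposited by the authors held TPM, 1 column per library summing to 1000000, for 27179 NCBI Gene numbers. The submitters' processing notes name the build mm10 and limma. The aligner, the annotation and the counting of shared reads are not given in the sources used here. Names came from RefSeq (GRCm38.p6), which did not name 1904 identifiers.

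Groups came from the labels. limma 3.58.1 (R 4.3.3) fitted 4 group means to log2(TPM + 1) of all 12 libraries with a mean-variance trend, keeping genes that reached 1 TPM in 3 or more libraries. Where nothing else is said, adjusted p are Benjamini–Hochberg values over 14972 genes. Single genes and ratios used two-sided exact permutation tests. All 232991 values above 0 came out as whole reads within 0.05 read. Simulated data with this comparison's spread (FAN1KO against wild-type under cisplatin) gave 82 of 195 genes changed 2-fold and 143 of 197 changed 4-fold, among 14680 and 14655 tested.

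Members and lists were chosen with earlier results of these data known. Named genes were the members, isoforms in a ratio with one, the 3 largest called rises and falls of each list in cisplatin-treated FAN1KO against wild-type kidneys, and the 2 genes most like each member. Pdk4 was named in addition, after its values were seen. For lists of cell markers only sums and counts of calls are given. Python 3.11.15, pandas 2.3.3 and scipy 1.17.1 were used. The results of 1 gene are not reported here.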

Additional observations from a re-analysis of the deposited data

Results flagged for a closer look

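The response of Hk2 to cisplatin was 1.49 higher on the log2 scale in FAN1KO than in wild-type kidneys (SE 0.33, limma adjusted p 0.0305), a difference between genotypes by the interaction term. The response was 1.61 in FAN1KO and 0.12 in wild-type kidneys. Over the alternatives run, the adjusted p of the interaction was between 0.00462 (Y-linked covariate) and 0.0748 (without FAN1KO cisplatin 1).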

How the results depend on the processing

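Of 850 member values under an alternative, 783 kept their side of the threshold (of which 90, not called in either fit, changed sign), 46 lost a call, 19 gained one and 2 reversed a call, and 217 of 220 ratio and balance differences moved by less than the replicate spread. Members called higher in cisplatin-treated FAN1KO against wild-type kidneys went from 3 to 1 with no filter on low values, with median-ratio scaling or with only the 6 libraries of the comparison, to 6 with a Y-linked covariate, and to 1 to 2 when a library was left out. In cisplatin against saline FAN1KO kidneys they went from 4 to 2 with no filter, 1 with median-ratio scaling, 2 with scaling and a Y-linked covariate together, and 1 to 4 when a library was left out. With scaling and covariate together, 1 member (Pgk1) was called lower in each of these comparisons. Ldhb against saline FAN1KO kidneys reversed to −0.10 with scaling and −0.11 with scaling and covariate. Interaction calls went from 1 to 4 with the covariate, 3 in libraries without Y-linked RNA, 2 with scaling and covariate, and 0 to 1 when a library was left out. After scaling, members without overlap went from 4 to 2 (FAN1KO against wild-type, cisplatin), from 2 to 1 (the same, saline) and from 5 to 3 (cisplatin against saline, FAN1KO). Before scaling, 35.7% of all tested genes were entirely higher and 8.60% entirely lower in the first of these comparisons. No such share was computed for the other counts, so they are descriptions only. With a pseudocount of 1 the Hk2 to Hk1 differences were 0.59, −0.32 and 0.97 in these 3 comparisons. The cause of these changes was not tested. The replicate block left 0 interaction calls and lost Ldhb in both comparisons with FAN1KO cisplatin kidneys (limma adjusted p 0.0704 and 0.0517), and it changed no other call. Samples share only a number: the mean correlation of same-numbered libraries was −0.24 to −0.14 and of others 0.08 to 0.14. Fits on libraries without Y-linked RNA, scaling with the covariate, the Y-linked contrast and overlap after scaling were chosen after seeing the data. Hk2 is limited by depth, at 18 to 132 reads outside FAN1KO cisplatin kidneys, and it passed the filter on low values only through those kidneys.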

Other observations

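Ldhd, which encodes the mitochondrial dehydrogenase of D-lactate and was chosen here after its values were seen, followed the Y-linked split more than any member did. Libraries with Y-linked RNA had a mean of 1189 TPM and those without had 307 TPM, and the difference was 1.87 ± 0.11 log2 (SE, limma adjusted p 1.14e-05, beside the 4 group means), or 2.18 with median-ratio scaling. The library with Y-linked RNA was the highest in all 4 groups.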
